A study of Mus musculus with 18 samples.

Results

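The Reg family (regenerating islet-derived genes) encodes small secreted C-type lectins, and 5 of its genes, Reg1, Reg3a, Reg3b, Reg3g and Reg4, were followed here in RNA-Seq counts of colon crypt epithelial cells. The genes were chosen by symbol, and all 5 were found among the 24047 genes of the count table. The 18 libraries, all of C57BL/6 mice, formed 6 groups of 3 by genotype (WT or Ern2-/-) and microbial state. GF mice were germ free, COLONIZED mice were germ-free mice examined 14 days after a single gavage with cecal homogenate of a WT donor raised with a specific pathogen-free flora, and CONV mice were raised conventionally. The study's question was how ERN2 (IRE1β), an endoplasmic reticulum stress sensor of mucosal epithelium encoded by Ern2, takes part in the response of this epithelium to gut microbes. Ern2-/- mice carried a germline deletion, so the gene was targeted in all tissues, and both COLONIZED groups received WT microbes. Ages and sexes of these mice were not given in the labels.

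Reg3b and Reg3g are antibacterial lectins of the intestinal epithelium, and Reg3g binds the peptidoglycan of Gram-positive bacteria and helps to keep bacteria away from the epithelial surface. Both are known to be raised by the microbiota, through Toll-like receptor signalling by the adaptor MyD88 and through interleukin 22 (IL-22), whose receptor on epithelial cells activates the transcription factor STAT3. Reg3a is a further Reg3 gene of the same cluster, and Reg1 is best known from the exocrine pancreas. Reg4 stands apart in sequence and in the colon marks deep crypt secretory cells and other secretory cells rather than absorptive cells.

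Library totals ran from 5865619 to 23154481 counts, and the 3 smallest libraries were CONV-WT replicate 3 and replicates 2 and 3 of CONV-Ern2-/-. Some libraries labelled Ern2-/- had counts of Ern2, the targeted gene, at WT level, so these groups are named here as labelled. Every library labelled Ern2-/- held Ern2 counts. Counts per gene do not show which part of the gene was read, so they do not settle the genotype of a library. Why some counts were at WT level was not tested. Normalized counts (counts divided by library size factors) of Ern2 had a WT range of 1909 to 3100. The 3 CONV-Ern2-/- libraries (998, 1622, 1487), replicates 2 (1325) and 3 (1885) of COLONIZED-Ern2-/- and replicate 2 of GF-Ern2-/- (386) fell under that range. The remaining libraries labelled Ern2-/- did not, since COLONIZED replicate 1 had 2567, GF replicate 1 had 2877 and GF replicate 3 had 3336. Reads of Y-linked genes outnumbered those of the X-linked gene Xist in 0 of 3 GF-WT, 2 COLONIZED-WT, 1 CONV-WT, 2 GF-Ern2-/-, 2 COLONIZED-Ern2-/- and 3 CONV-Ern2-/- libraries. The other libraries had at most 2 Y-linked reads. The summed normalized counts of 7 epithelial markers (144852 to 213358) were far above those of the 13 immune markers in the table (104 to 381) and of 10 mesenchymal markers (50.8 to 407). The labels number the replicates but do not say more about them, so p-values measure the spread between these libraries.

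By GENCODE M21 (GRCm38, the mm10 build), 4 of the 5 genes lie within 98.2 kb of chromosome 6. They are Reg3b (chr6:78370657-78373466, plus strand), Reg3a (chr6:78380709-78383827, plus strand), Reg1 (chr6:78422711-78428667, plus strand) and Reg3g (chr6:78466269-78468872, minus strand). Reg4 lies on chromosome 3 (chr3:98222156-98236748, plus strand). Each gene has 6 exons in its first listed transcript. Coding sequences of Reg3b and Reg3g were 75.9% identical, those of Reg3a and Reg3b 73.3%, and that of Reg4 was 49.7% identical to Reg3b and 49.8% to Reg3g. No window of 75 bases, the read length, from any of these 5 transcripts occurred in a transcript of another gene, so exact reads of 1 member could not be counted for another.

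Sequences before the RefSeq start of the 3 members that changed between groups are shown because Reg3b and Reg3g had similar courses in these libraries and Reg4 did not follow them. Promoters from RefSeq (GRCm38.p6) matched all 5 symbols and were searched on both strands, from 250 bases before to 50 after the gene start, for the STAT-type motif TTCNNNGAA, the TATA box TATAAA and the motif ACGTG, the core of XBP1 sites. Capitals mark matches. The Reg3b sequence stops at the end of its last match, 23 bases short of the RefSeq start. A GENCODE transcript of the gene begins there or earlier. The sequence lies inside the GENCODE interval of the gene, in the first intron of another transcript that begins at chr6:78370657.
Reg3b, chr6:78370725-78370861, plus strand: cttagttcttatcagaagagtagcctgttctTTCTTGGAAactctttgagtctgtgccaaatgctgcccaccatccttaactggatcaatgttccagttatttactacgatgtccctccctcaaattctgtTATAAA
Reg3g, chr6:78468875-78469034, minus strand: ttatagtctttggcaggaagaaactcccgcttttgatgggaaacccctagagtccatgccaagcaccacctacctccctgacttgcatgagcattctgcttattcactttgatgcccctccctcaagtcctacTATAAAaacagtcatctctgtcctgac
Reg4, chr3:98221906-98222155, plus strand: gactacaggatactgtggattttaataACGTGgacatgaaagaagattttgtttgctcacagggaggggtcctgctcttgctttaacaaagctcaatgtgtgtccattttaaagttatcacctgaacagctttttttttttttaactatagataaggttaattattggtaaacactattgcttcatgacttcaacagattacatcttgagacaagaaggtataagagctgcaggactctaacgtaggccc
Over the 160 bases before the RefSeq start Reg3b and Reg3g were 68.5% identical, against 43.5% for Reg3g and Reg4. TATAAA began 30 bases before the start in Reg1, 29 before it in Reg3b and 27 before it in Reg3g. On the other strand it was found as TTTATA 161 bases before the start in Reg3g and 35 after it in Reg1. The Reg3g match begins just before the sequence shown and is not in capitals there. On either strand TATAAA was in 13.6% of the 32851 promoters. TTCNNNGAA was found in Reg3b alone among the 5 members, as TTCTTGGAA 129 bases before the start, and in 8.30% of all promoters. ACGTG was found in Reg4 alone among them, 223 bases before the start, and in 19.6% of all promoters. These matches are descriptions of the letters, not binding sites.

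The 5 genes differed widely in level. Over 18 libraries the mean normalized count was 14596 for Reg4, 4625 for Reg3b, 1495 for Reg3g, 20.8 for Reg3a and 5.26 for Reg1. The other mouse Reg genes in the table were almost silent, Reg2 with 11 reads in 7 libraries and Reg3d with 6 reads in 3. Reg4 alone took up to 0.329% of all counts of a library (CONV-WT replicate 2) and Reg3b up to 0.226% (COLONIZED-Ern2-/- replicate 1). In bulk crypts, more cells that make a lectin and more RNA per cell cannot be told apart.

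**Figure D1:**
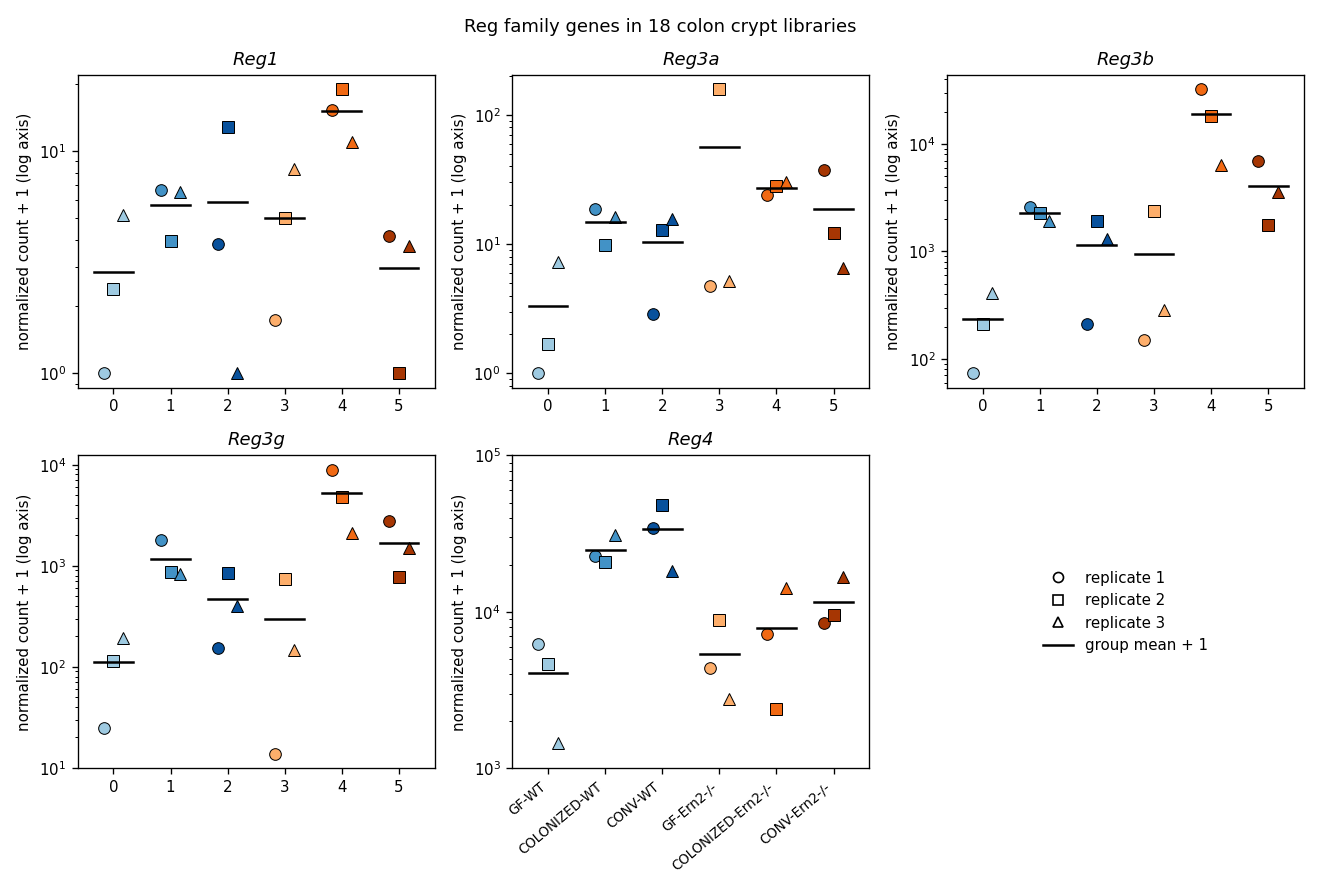
Normalized count + 1 of each Reg gene in the 18 libraries, on log axes, with 1 point per library, a shape per replicate number and a bar at the group mean. Mean Reg3b and Reg3g were highest in COLONIZED-Ern2-/-, where replicate 3 (6324 and 2086) lay below CONV-Ern2-/- replicate 1 (6940 and 2753), whereas mean Reg4 was highest in CONV-WT and COLONIZED-WT and the Reg3a panel has 1 high library, GF-Ern2-/- replicate 2 (157).

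Colonization of GF-WT mice was followed by higher levels of the 3 abundant members, the lectins Reg3b and Reg3g and the secretory cell gene Reg4. Normalized Reg3b counts were 72.2, 210 and 413 in GF-WT replicates 1, 2 and 3 and 2577, 2286 and 1921 in COLONIZED-WT. All COLONIZED-WT libraries thus lay above all GF-WT libraries, and the GF-WT values spread over 5.72-fold while those of COLONIZED-WT spread over 1.34-fold. Reg3b rose 9.79-fold (log2 fold change 3.29, SE 0.68, DESeq2 adjusted p = 2.35e-05).

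Reg3g counts were 23.8, 113 and 193 in GF-WT and 1815, 865 and 827 in COLONIZED-WT. Again the groups did not overlap, and Reg3g rose 10.7-fold (log2 fold change 3.42, SE 0.84, DESeq2 adjusted p = 0.000544). Reg4 counts were 6189, 4647 and 1452 in GF-WT and 22878, 20869 and 30969 in COLONIZED-WT, a 6.13-fold rise with no overlap (log2 fold change 2.62, SE 0.52, DESeq2 adjusted p = 1.15e-05). The GF-WT library with the least Reg4, replicate 3, had the most Reg3b and Reg3g of its group.

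Reg3a was near the limit of counting, with 0, 0.70 and 6.25 in GF-WT and 17.8, 8.81 and 15.1 in COLONIZED-WT. The groups did not overlap, and the difference missed the threshold (log2 fold change 2.57, SE 0.98, DESeq2 adjusted p = 0.0344). The 3 GF-WT libraries held 8 reads of Reg1 in all against 19 in the COLONIZED-WT libraries, and the groups overlapped (log2 fold change 1.34, SE 1.19, DESeq2 adjusted p = 0.418).

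So 3 of 5 members passed the threshold of an adjusted p under 0.01, all of them higher, where DESeq2 called 18.3% of 13635 tested genes and 9.35% as higher. Groups did not overlap for 4 members, against 46.6% of tested genes. By edgeR's quasi-likelihood test, which called 4.94% of genes, Reg3b passed (adjusted p = 0.00819), whereas Reg4 (adjusted p = 0.0112) and Reg3g (adjusted p = 0.012) did not. No GF-WT library had more Y-linked than Xist reads. With sex, assigned by that rule, as a covariate the DESeq2 adjusted p of Reg3b, Reg3g and Reg4 became 0.035, 0.184 and 0.0717. Without COLONIZED-WT replicate 1, the highest Reg3g library, that of Reg3g was 0.0199, and without GF-WT replicate 3 Reg3a passed as well (0.00747). Marker lists of other crypt cells moved in the same comparison, with 5 of 9 tested stem and proliferating crypt genes higher (median log2 fold change 0.67) and 2 of 8 surface colonocyte genes lower (median -1.49), and their part in the Reg levels was not tested.

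In CONV-WT mice, which had a microbiota from birth, Reg4 was the only member that passed against GF-WT. Its counts were 34387, 48407 and 18216, all above the 3 GF-WT values, and it rose 8.16-fold (log2 fold change 3.03, SE 0.56, DESeq2 adjusted p = 3.39e-06). Each of the 6 fits without 1 library called it, with adjusted p up to 0.000567. DESeq2 called 11% of 13874 genes in this comparison and 5.68% as higher, and 36.2% of genes had groups that did not overlap, as Reg4 did alone among the members. EdgeR called 0.175% of genes and gave Reg4 an adjusted p of 0.0351. DESeq2 with a term for library totals gave 0.0232. Of the marker lists, 3 of 8 tested surface colonocyte genes (median log2 fold change -1.60) and 2 of 6 small intestine and Paneth genes (median -2.32) were lower by DESeq2. Higher were 2 of 8 mesenchymal genes (median 3.79) and 2 of 9 stem and proliferating crypt genes (median 0.65). The mesenchymal sum was 407 in CONV-WT replicate 3, against 70.7 and 109 in replicates 1 and 2. Of 14 goblet and secretory genes (without Ern2) 4 were higher and 1 lower (median 0.70, 3 to 10 higher without 1 library). Their part in the Reg levels was not tested.

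Reg3b counts in CONV-WT were 211, 1934 and 1315 and those of Reg3g 152, 855 and 394, so replicate 1 lay at GF-WT levels for both while the other replicates lay above them. The differences from GF-WT, 2.30 (SE 0.79, DESeq2 adjusted p = 0.0249) for Reg3b and 2.07 (SE 0.78, DESeq2 adjusted p = 0.0429) for Reg3g on the log2 scale, missed the threshold. Without CONV-WT replicate 1 both passed (DESeq2 adjusted p = 0.000325 and 0.00988), and without GF-WT replicate 3 Reg3b did (0.00676). Reg3a (1.89, 11.9 and 14.6) and Reg1 (2.83, 11.9 and 0) did not pass, with adjusted p of 0.34 and 0.611 by DESeq2.

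CONV-WT and COLONIZED-WT share the genotype and differ in how microbes were acquired and how long they had been present. They also differ in housing, in library totals and in the number of libraries with more Y-linked than Xist reads. Between them 0 members passed by DESeq2, which called 0.119% of 13458 genes, or by edgeR, which called 0%. Reg3g alone had an unadjusted p under 0.05 (0.0305), and the groups overlapped for all 5 members, as for all but 16.4% of genes. The 95% interval of the log2 difference ran from -2.54 to -0.13 for Reg3g, from -2.27 to 0.32 for Reg3b and from -0.32 to 1.17 for Reg4. These comparisons share libraries with those above.

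**Figure D2:**
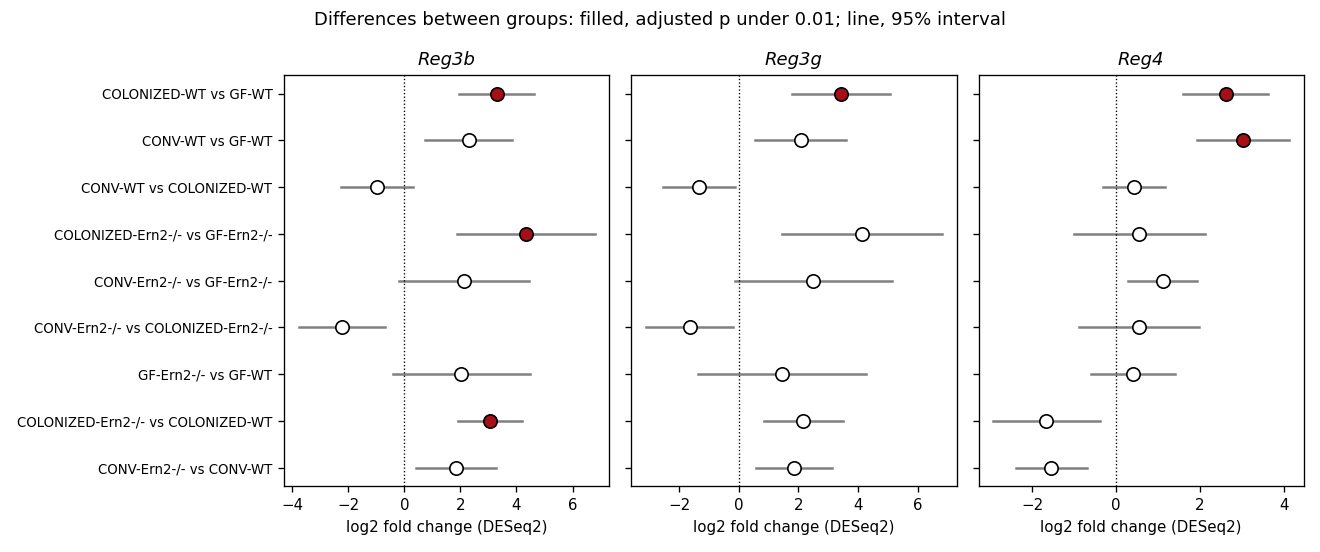
Log2 fold change of Reg3b, Reg3g and Reg4 in the 9 comparisons between groups (first group over second), with 95% intervals as lines and filled points where the DESeq2 adjusted p was under 0.01. Filled points for Reg4 are those of COLONIZED-WT (2.62) and CONV-WT (3.03) over GF-WT, and both genotype differences of Reg4 with microbes lie below 0 (-1.66 and -1.54).

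Among the groups labelled Ern2-/-, Reg3b reached the highest levels of the series after colonization. Its counts were 148, 2388 and 287 in GF-Ern2-/- and 32491, 18414 and 6324 in COLONIZED-Ern2-/-. The lowest COLONIZED-Ern2-/- library lay above every GF-Ern2-/- library, although GF-Ern2-/- replicate 2 reached the COLONIZED-WT level without microbes. Reg3b rose 20.1-fold (log2 fold change 4.33, SE 1.25, DESeq2 adjusted p = 0.00805), in a comparison where 7.17% of 13943 genes were called and 3.6% as higher. Groups did not overlap for Reg1, Reg3b and Reg3g, against 33.1% of genes.

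The size of this difference and its p depended on single libraries. Without GF-Ern2-/- replicate 2 the log2 fold change was 6.47 (DESeq2 adjusted p = 4.00e-13), and in the other 5 fits without 1 library it was 3.70 to 4.74 with adjusted p from 0.0115 to 0.113. Without the libraries labelled Ern2-/- that had WT levels of Ern2 the adjusted p was 0.0115 (GF replicate 1), 0.0378 (GF replicate 3) and 0.113 (COLONIZED replicate 1). EdgeR gave an adjusted p of 0.065 and called 0.216% of genes.

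Reg3g counts were 12.7, 732 and 145 in GF-Ern2-/- and 8917, 4770 and 2086 in COLONIZED-Ern2-/-, with no overlap (log2 fold change 4.13, SE 1.36, DESeq2 adjusted p = 0.0246). Without GF-Ern2-/- replicate 2 the log2 fold change was 6.08 (DESeq2 adjusted p = 4.55e-05) and without replicate 1 it was 3.57 (DESeq2 adjusted p = 0.0077). Reg4 behaved otherwise, with 4377, 8931 and 2782 in GF-Ern2-/- and 7189, 2410 and 14234 in COLONIZED-Ern2-/-. The groups overlapped, and the 95% interval of the log2 difference ran from -1 to 2.12 (DESeq2 adjusted p = 0.731). In the same comparison 5 of 8 tested surface colonocyte genes were lower (median log2 fold change -1.22), and 5 of 15 enteroendocrine genes (median 1.16) and 4 of 9 stem and proliferating crypt genes (median 0.50) were higher by DESeq2. Their part in the Reg levels was not tested.

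Reg3a was 3.73, 157 and 4.17 in GF-Ern2-/- and 22.8, 27.0 and 29.1 in COLONIZED-Ern2-/-. DESeq2 gave no p for it here, because its filter on single extreme counts (Cook's filter) set aside the value of GF-Ern2-/- replicate 2, and without that library the log2 fold change turned from -1.08 to 2.75 (DESeq2 adjusted p = 0.00147). The same library held the lowest Ern2 count of the series and the highest Reg3a, Reg3b, Reg3g and Reg4 of the 6 GF libraries. Its summed count of small intestine and Paneth markers was 18427, against 1437 to 8736 in GF-WT, and of surface colonocyte markers 459639, against 37065 to 189544. Of the Paneth cell genes, Lyz1, Defa22, Defa17 and Defa24 were low but higher there than in any other library, whereas Mmp7 was not (15.0, against up to 112 in COLONIZED-Ern2-/- replicate 1). GF-Ern2-/- replicate 2 had 89.2 normalized counts of the lysozyme gene Lyz1, against at most 6.02 elsewhere, and 20.1 of the defensin gene Defa22, which had no reads elsewhere. Defa17 and Defa24 had 4.01 each. The part of other cells in its Reg values was not tested.

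Reg1 was low in every group, but its 3 COLONIZED-Ern2-/- values, 14.2, 18.0 and 10.0, lay above all 3 GF-Ern2-/- values, 0.75, 4.01 and 7.30. The difference missed the threshold (log2 fold change 1.86, SE 0.87, DESeq2 adjusted p = 0.154). It rests on 50 reads against 12. Of the 15 pancreatic acinar markers, Prss2, Ctrb1, Cpa1, Pnlip and Amy2a5 each averaged under 1 normalized count over the 18 libraries, and the summed level of that list (1121 to 14076) came from Sycn, Cela1 and Clps, with means of 3679, 3280 and 267. Clps, which encodes colipase, was highest in CONV-WT (1528, 1030 and 424), where it was 424 of a sum of 1932 in replicate 3. In COLONIZED-WT against GF-WT Clps rose (log2 fold change 1.91, SE 0.22, DESeq2 adjusted p = 9.73e-16) while Sycn (-1.12, SE 0.21, DESeq2 adjusted p = 3.39e-06) and Cela1 (-1, SE 0.25, DESeq2 adjusted p = 0.000532) fell.

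Against GF-Ern2-/-, CONV-Ern2-/- libraries had 0 members past the threshold, where DESeq2 called 4.33% of 13404 genes and edgeR 0.0325%. DESeq2 gave Reg3a no p and Reg1 no adjusted p here, so only Reg3b, Reg3g and Reg4 could pass. Reg4 was the 1 member with an unadjusted p under 0.05 (0.00851), and Reg3g alone had groups that did not overlap, against 24.6% of genes. Reg3b counts in CONV-Ern2-/- were 6940, 1753 and 3559 (log2 fold change 2.12, SE 1.18, DESeq2 adjusted p = 0.317) and Reg3g counts 2753, 771 and 1482 (2.50, SE 1.34, DESeq2 adjusted p = 0.291). Reg4 counts were 8513, 9532 and 16751 (1.11, SE 0.42, DESeq2 adjusted p = 0.0871). Here too GF-Ern2-/- replicate 2 decided the outcome, since without it Reg3b, Reg3g and Reg4 all passed (DESeq2 adjusted p = 3.84e-13, 0.00555 and 0.000128).

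CONV-Ern2-/- also had lower mean Reg3b and Reg3g than COLONIZED-Ern2-/-, by 2.22 (SE 0.79, DESeq2 adjusted p = 0.0342) and 1.65 (SE 0.74, DESeq2 adjusted p = 0.109) on the log2 scale. Neither passed and the groups overlapped, with 8.59% of 13098 genes called by DESeq2 and 0.282% by edgeR, and 0 members by either. Unadjusted p were under 0.05 for Reg1, Reg3b and Reg3g. Only Reg1 had groups that did not overlap, against 35.9% of genes, with 3.13, 0 and 2.76 in CONV-Ern2-/- below the 3 COLONIZED-Ern2-/- values. Without COLONIZED-Ern2-/- replicate 3, the lowest of its group for both, they passed (DESeq2 adjusted p = 6.08e-06 and 0.00075). Without CONV-Ern2-/- replicate 1, the highest of its group, Reg3b passed (DESeq2 adjusted p = 0.00399). In this comparison 6 of 8 tested surface colonocyte genes (median log2 fold change 1.49) and 2 of 8 mesenchymal genes (median 2.90) were higher and 9 of 14 goblet and secretory genes (without Ern2) lower by DESeq2. Their part in the Reg levels was not tested.

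The comparison of the genotype labels at each microbial state addresses whether levels of the lectins differ with Ern2. In COLONIZED mice Reg3b was 8.4-fold higher in the libraries labelled Ern2-/- (32491, 18414 and 6324) than in COLONIZED-WT (2577, 2286 and 1921), with no overlap (log2 fold change 3.07, SE 0.58, DESeq2 adjusted p = 3.65e-05). It was the only member of 5 called, where 1.37% of 11960 genes were called, 0.518% as higher. All 6 fits without 1 library called it, with log2 fold changes from 2.46 to 3.49 and adjusted p up to 0.00718, and without COLONIZED-Ern2-/- replicate 1, whose Ern2 was at WT level, the adjusted p was 0.0006. The adjusted p was 0.0767 by edgeR, which called 0.00786% of genes, and 0.0835 in 1 DESeq2 fit of all 18 libraries. Of 5 tested small intestine and Paneth genes 1, the sucrase gene Sis, was higher by DESeq2 in this comparison (2.12, SE 0.41, adjusted p = 4.48e-05, with 77.6, 294 and 254 against 49.9, 41.1 and 52.4 normalized counts), and the median log2 fold change of the 5 was 0.91. The part of such cells in the Reg3b difference was not tested.

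The other 4 members did not pass in that comparison, although none of their groups overlapped, as for 30.4% of tested genes. Reg3g was higher by 2.16 on the log2 scale (SE 0.67, DESeq2 adjusted p = 0.034), Reg3a by 0.91 (SE 0.45, DESeq2 adjusted p = 0.204) and Reg1 by 1.58 (SE 0.65, with no adjusted p because of its low count). Reg4 went the other way, with 7189, 2410 and 14234 in COLONIZED-Ern2-/- against 20869 to 30969 in COLONIZED-WT (log2 fold change -1.66, SE 0.65, DESeq2 adjusted p = 0.0969). Without COLONIZED-Ern2-/- replicate 3, the library with the least Reg3b and the most Reg4 of its group, Reg3g (2.54, DESeq2 adjusted p = 0.00315) and Reg4 (-2.38, DESeq2 adjusted p = 0.00367) passed too.

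In CONV mice 0 members passed between the genotype labels, where DESeq2 called 3.03% of 12625 genes and edgeR 0% and Reg1 had no adjusted p by DESeq2, although Reg3b, Reg3g and Reg4 had unadjusted p under 0.05. Reg4 lay just outside the threshold, with 34387, 48407 and 18216 in CONV-WT against 8513, 9532 and 16751 in CONV-Ern2-/- (log2 fold change -1.54, SE 0.43, DESeq2 adjusted p = 0.0102). All CONV-WT values of Reg4 exceeded all CONV-Ern2-/- values, as was so in either direction for 21.3% of genes. Without CONV-WT replicate 3 Reg4 passed (DESeq2 adjusted p = 1.3e-06), as it did without CONV-Ern2-/- replicate 3 (0.00303), and without CONV-WT replicate 2 its adjusted p was 0.198.

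Reg3b (log2 fold change 1.83, SE 0.73, DESeq2 adjusted p = 0.128) and Reg3g (1.85, SE 0.65, DESeq2 adjusted p = 0.0669) averaged more in CONV-Ern2-/- than in the WT group, and the groups overlapped. Of 5 tested small intestine and Paneth genes 2 were higher and 0 lower by DESeq2 (median log2 fold change 2.01), against 1.08% of all tested genes higher. The part of such cells in the Reg levels was not tested. All 3 CONV-Ern2-/- libraries and 1 CONV-WT library, replicate 1, had more Y-linked than Xist reads. With sex as a covariate the log2 fold changes were 4.28 (DESeq2 adjusted p = 3.44e-07) and 3.46 (DESeq2 adjusted p = 0.0002), values that rest on that 1 CONV-WT library, the lowest for both genes. Without CONV-WT replicate 2 Reg3g passed (DESeq2 adjusted p = 0.00374).

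Without microbes 0 members passed between the genotype labels and 0 had an unadjusted p under 0.05 by DESeq2, which called 0.0349% of 17168 genes and gave Reg3a no p. EdgeR called 0% of genes. All 5 members had overlapping groups, as all but 6.1% of genes did. The log2 differences of Reg3b and Reg3g, 2.03 (SE 1.25) and 1.44 (SE 1.44), were -0.11 and -0.49 without GF-Ern2-/- replicate 2. That of Reg4 was 0.40 (SE 0.51), with a 95% interval from -0.6 to 1.4.

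The interaction of genotype label and microbes, fitted on 12 libraries, tests whether the response itself differed. By DESeq2 0 members passed in either fit, where 0.028% (COLONIZED) and 0.177% (CONV) of genes were called, and edgeR called 0% of genes in both. Reg4 alone had an unadjusted p under 0.05, in both fits. DESeq2 gave Reg3a no p in the COLONIZED fit and Reg1 no adjusted p in the CONV fit. The Reg4 response was smaller in the groups labelled Ern2-/- by 2.05 (SE 0.95, unadjusted p = 0.0317, DESeq2 adjusted p = 0.849) for COLONIZED and by 1.92 (SE 0.78, unadjusted p = 0.0133, DESeq2 adjusted p = 0.351) for CONV on the log2 scale. For Reg3b the interaction was 1.04 (SE 1.4) and -0.20 (SE 1.57), so a difference between the Reg3b responses was not detectable at this spread. The fits share their GF libraries.

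**Figure D3:**
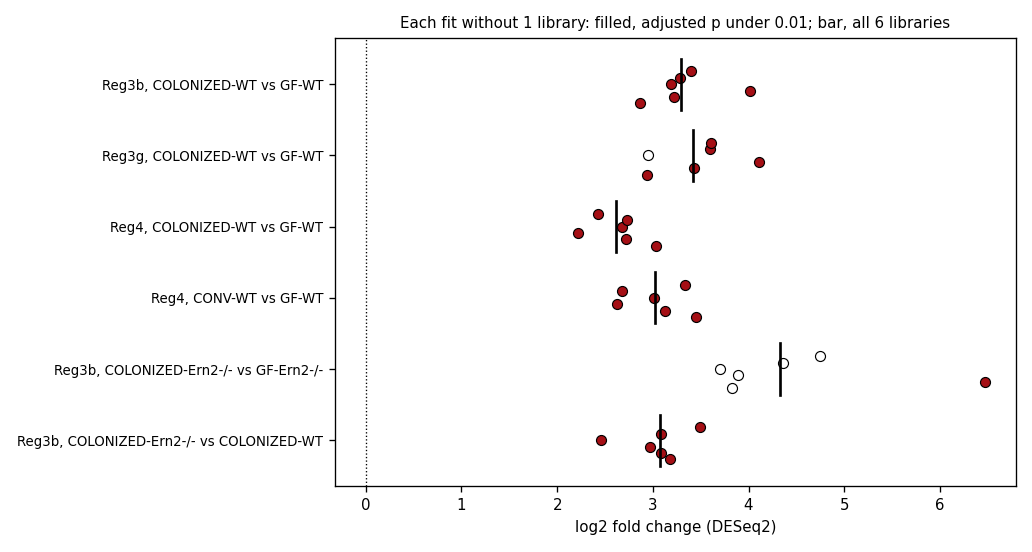
Log2 fold changes of the 6 calls made on members, in fits that each left out 1 of the 6 libraries, with filled points at a DESeq2 adjusted p under 0.01 and a bar for the fit of all 6. Reg3b in COLONIZED-Ern2-/- against COLONIZED-WT kept filled points from 2.46 to 3.49, whereas against GF-Ern2-/- only the fit without GF-Ern2-/- replicate 2 (6.47) is filled.

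The order of the group means set Reg3b and Reg3g apart from Reg4. Mean normalized counts of Reg3b fell from 19076 ± 13096 (SD, n = 3) in COLONIZED-Ern2-/- over 4084 ± 2633 in CONV-Ern2-/-, 2261 ± 329 in COLONIZED-WT, 1153 ± 873 in CONV-WT and 941 ± 1255 in GF-Ern2-/- to 232 ± 171 in GF-WT. Reg3g followed the same order, from 5258 ± 3442 to 110 ± 84.6. Every group overlapped its neighbour in that order for both genes.

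For Reg4 the order was CONV-WT (33670 ± 15108), COLONIZED-WT (24905 ± 5347), CONV-Ern2-/- (11599 ± 4491), COLONIZED-Ern2-/- (7944 ± 5948), GF-Ern2-/- (5363 ± 3191) and GF-WT (4096 ± 2417). The only neighbours without overlap were COLONIZED-WT and CONV-Ern2-/-, so that both WT groups with microbes lay above all other libraries. Reg1 and Reg3a were too low for an order, apart from the mean of 14.1 ± 3.99 for Reg1 in COLONIZED-Ern2-/-.

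Per kb of transcript, the scale on which genes can be compared, mean Reg4 exceeded mean Reg3b in 5 of the 6 groups and lay below it in COLONIZED-Ern2-/-. Mean levels per kb were 24393 for Reg4 and 2888 for Reg3b in COLONIZED-WT, and 7781 and 24363 in COLONIZED-Ern2-/-. Reads of Reg4 over reads of Reg3b came to 0.221, 0.131 and 2.25 in COLONIZED-Ern2-/- replicates 1, 2 and 3, to 8.88, 9.13 and 16.1 in COLONIZED-WT, and to 163, 25.0 and 13.9 in CONV-WT. Replicate 3 of COLONIZED-Ern2-/- thus had more Reg4 than Reg3b, also per kb (13942 and 8076), as the WT libraries did. CONV-Ern2-/- replicate 1 had similar levels of both per kb, 8338 of Reg4 and 8864 of Reg3b.

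**Figure D4:**
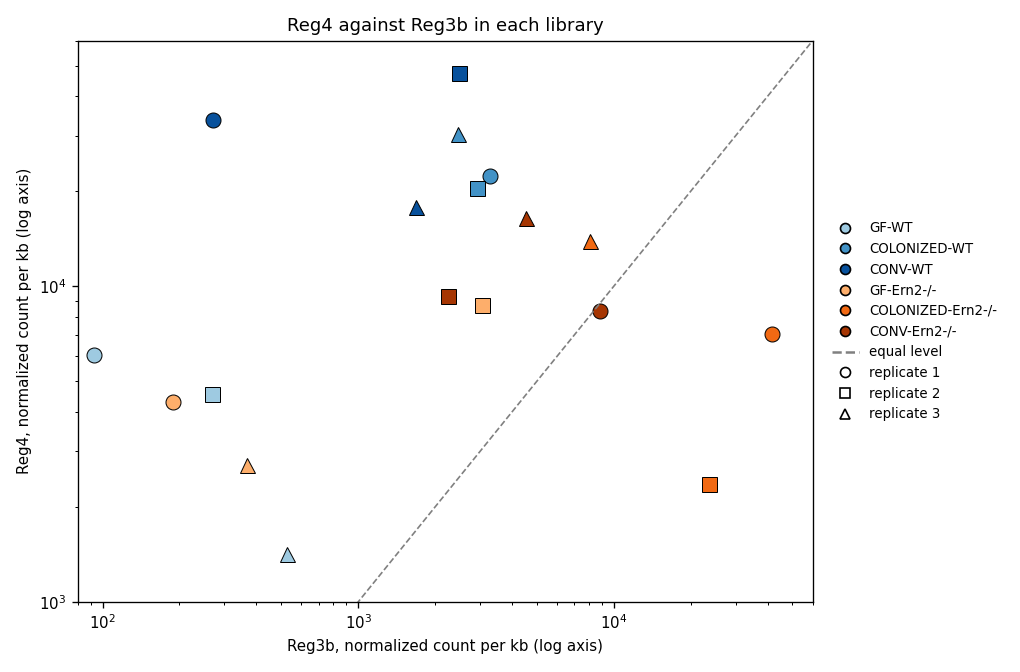
Reg4 against Reg3b in the 18 libraries, both as normalized count per kb of transcript on log axes, with a color per group and a shape per replicate number. COLONIZED-Ern2-/- replicates 1 and 2 lie far right of the line of equal level, with 0.221 and 0.131 reads of Reg4 per read of Reg3b, CONV-Ern2-/- replicate 1 lies just right of it (8338 against 8864), and WT libraries lie above it.

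Reg3b and Reg3g kept a similar ratio in most libraries, with a range of 1.39 to 11.7 over all 18. Reads of Reg3b per read of Reg3g averaged 2.35 ± 0.61 (SD, n = 3) in GF-WT, 2.13 ± 0.63 in COLONIZED-WT, 2.33 ± 0.97 in CONV-WT and 2.40 ± 0.12 in CONV-Ern2-/-. In COLONIZED-Ern2-/- the ratio was 3.64, 3.86 and 3.03, a mean of 3.51 ± 0.43, above the 1.42, 2.64 and 2.32 of COLONIZED-WT with no overlap. In GF-Ern2-/- the ratio was 11.7, 3.26 and 1.98, a mean of 5.65 ± 5.28, and the 11.7 was that of replicate 1, whose normalized Reg3g count was 12.7. The root mean square difference of their centred log2 profiles over 18 libraries was 0.64, the smallest of the 10 pairs of members, against 2.54 for Reg3b and Reg4.

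By the same measure, the gene most like Reg4 among 10848 candidates was Spink4, a secreted protease inhibitor of goblet cells, at a root mean square log2 difference of 0.41. Gsdmc2, a gasdermin (0.77), and Selm, a selenoprotein (0.80), came next. GF-WT libraries had 3929, 3988 and 1670 counts of Spink4, COLONIZED-WT libraries 20296, 16059 and 22182, and CONV-WT libraries 41276, 47089 and 14748. GF-Ern2-/- libraries had 3749, 5207 and 2294, COLONIZED-Ern2-/- libraries 8959, 3103 and 7302, and CONV-Ern2-/- libraries 5445, 6701 and 8371, so that all WT libraries with microbes lay above all other libraries, as for Reg4. The distance of 0.41 compares with a spread of 1.37 for Reg4 itself.

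No candidate came as near to Reg3b or Reg3g as these came to each other. The nearest to both Reg3b (1.13) and Reg3g (1.15) was 2210407C18Rik, which followed them with a flatter course, from 124 in GF-WT replicate 1 to 3568 in COLONIZED-Ern2-/- replicate 2. For Reg3b it was followed by Chac1 (1.22), a glutathione-degrading enzyme induced by the stress factor ATF4, and Nts (1.24), which encodes the gut peptide neurotensin. For Reg3g it was followed by Dnm1, which encodes a dynamin (1.27), and Art2a-ps (1.27). Reg3a was nearest to Lgals2, a galectin (0.99), Mogat2, an enzyme of fat absorption (1.03), and Prap1 (1.04). Lgals2, like Reg3a, had 1 very high library, with 1195 in GF-Ern2-/- replicate 2 against 17.9 and 126 in the other 2 of that group. The nearest genes depended on the settings. With a pseudocount of 10 in place of 1, 3 of the 3 nearest genes were shared for Reg3b and Reg4, 1 for Reg3g and 0 for Reg3a, and with candidates of a mean count of at least 200 in place of 50, 3 were shared for Reg4, 2 for Reg3a and 1 each for Reg3b and Reg3g. Likeness over libraries is a description of these 18 profiles.

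**Figure D5:**
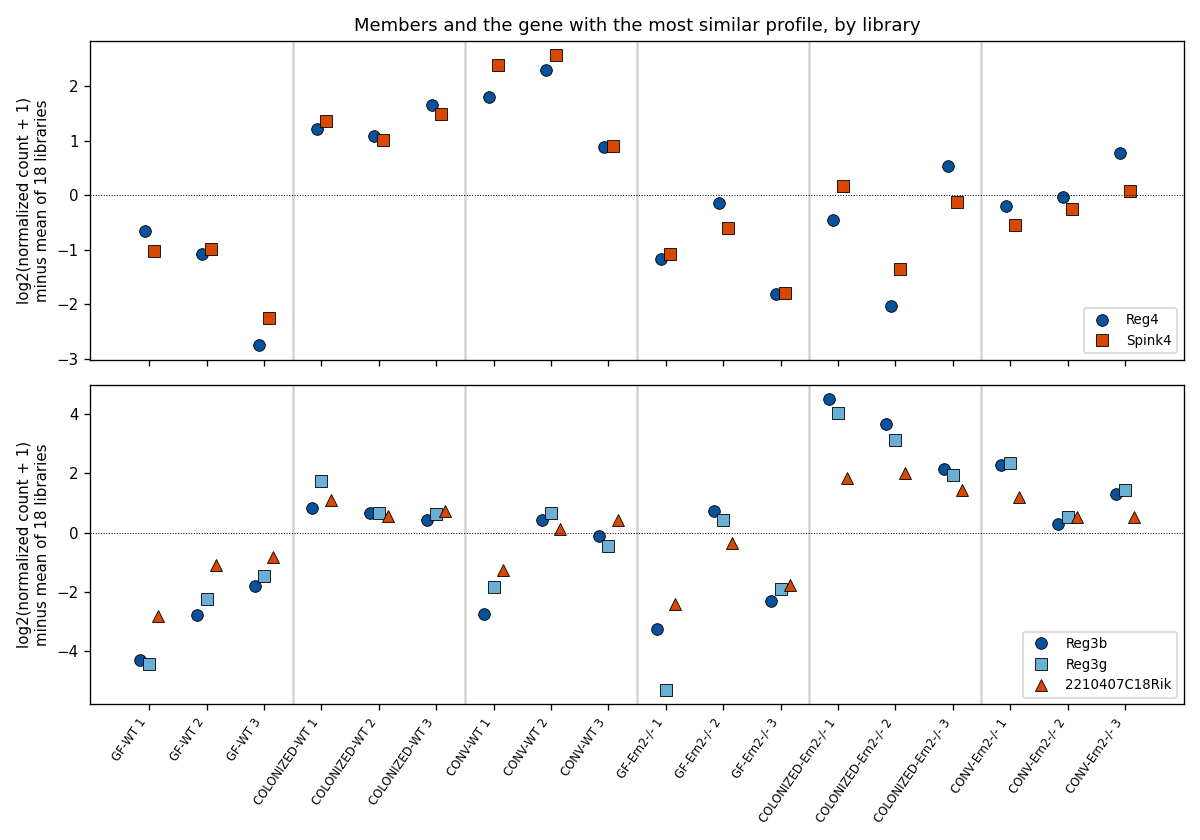
Centred log2(normalized count + 1) of Reg4 with Spink4 (top) and of Reg3b and Reg3g with 2210407C18Rik (bottom) in the 18 libraries, ordered by group. Spink4 runs beside Reg4 (root mean square difference 0.41), while 2210407C18Rik has a smaller range than Reg3b (1.13).

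Genes of the pathways known to raise Reg3 lectins were followed in the 3 comparisons in which Reg3b was called. Of 13 genes of the IL-22 and gp130 receptors and STAT3, 10 were tested between COLONIZED-Ern2-/- and COLONIZED-WT and 0 were called higher or lower by DESeq2, with a median log2 fold change of 0.02 against -0.003 over all tested genes. Stat3 itself was 0.18 (SE 0.15, DESeq2 adjusted p = 0.486) and Il22, the cytokine, had no read in any library. The 12 Toll-like receptor signalling genes (11 tested, median 0.07) and the 14 other epithelial defence genes linked to STAT3 (10 tested, median -0.02) likewise had 0 called genes. With 1.37% of all tested genes called, counts of 0 in lists of this size do not set them apart from other genes. Without COLONIZED-Ern2-/- replicate 1 DESeq2 called 1 of the defence genes lower, and without any other single library 0 of these lists. The smallest adjusted p in the Toll-like and defence lists were those of Tlr5, the flagellin receptor (0.56, SE 0.21, DESeq2 adjusted p = 0.0859), and Pigr, which carries IgA across the epithelium (-0.35, SE 0.13, DESeq2 adjusted p = 0.0856). In the receptor list it was that of Il11ra1 (-0.59, SE 0.24, DESeq2 adjusted p = 0.111). Among the defence genes S100a8 and S100a9, which mark neutrophils, had no reads and Lcn2 averaged 1.07 normalized counts over the 18 libraries, while Saa1 averaged 4547, Duox2 775, Saa3 137 and Nos2 17.4.

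Between COLONIZED-WT and GF-WT these lists were mixed. In the receptor list Bcl3, an IκB family protein, rose (0.69, SE 0.16, DESeq2 adjusted p = 0.000261) and Il22ra1, the IL-22 receptor chain of epithelium, fell by 1.22 (SE 0.25, DESeq2 adjusted p = 2.13e-05), and the other 8 tested did not pass. Of the defence genes linked to STAT3, 4 of 11 tested rose and 2 fell. Duox2 (1.49, SE 0.28, DESeq2 adjusted p = 2.01e-06) and Duoxa2 (1.32, SE 0.34, DESeq2 adjusted p = 0.00112), which make hydrogen peroxide at the surface, were among those that rose. The acute phase genes Saa1 (-4.82, SE 0.65, DESeq2 adjusted p = 2.84e-11) and Saa2 (-4.53, SE 0.59, DESeq2 adjusted p = 2.81e-12) fell. Saa1 went from 6397, 13102 and 25696 in GF-WT to 296, 756 and 549 in COLONIZED-WT, opposite to Reg3b. DESeq2 called 9.35% of all tested genes higher and 8.97% lower here, and without 1 library 1 to 5 of the defence genes were called higher and 2 to 3 lower.

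In the Toll-like receptor list, also between COLONIZED-WT and GF-WT, Nfkbiz, an NF-κB cofactor, rose (0.61, SE 0.17, DESeq2 adjusted p = 0.00325) and Tlr4 fell by 0.72 (SE 0.23, DESeq2 adjusted p = 0.00842), with 11 tested. Without 1 library 0 to 1 were called in each direction. Medians in this comparison were -0.10 for the receptor list, 0.45 for the defence genes and -0.09 for the Toll-like list, against -0.01 over all tested genes.

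Between COLONIZED-Ern2-/- and GF-Ern2-/-, 1 of 11 tested genes of the receptor list was lower, Il22ra1 (-0.79, SE 0.16, DESeq2 adjusted p = 5.10e-05), and 0 of 11 in the Toll-like list were called. Of the defence genes 2 of 11 rose, Duox2 (1.59, SE 0.45, DESeq2 adjusted p = 0.00597) and Duoxa2 (1.68, SE 0.48, DESeq2 adjusted p = 0.0078). Saa1 (-4.44, SE 0.27, DESeq2 adjusted p = 1.25e-57), Saa2 (-4.34, SE 0.59, DESeq2 adjusted p = 5.06e-11) and Il18, a cytokine of epithelial cells (-0.83, SE 0.21, DESeq2 adjusted p = 0.00159), fell. Over all tested genes 3.6% were called higher and 3.57% lower.

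Several other secreted antimicrobial proteins rose with Reg3b on colonization of WT mice and 4 were lower in COLONIZED-Ern2-/- than in COLONIZED-WT, where Reg3b was higher. Between COLONIZED-Ern2-/- and GF-Ern2-/-, where Reg3b rose too, 0 of 14 tested were higher and 1, Lypd8, lower by DESeq2 (median log2 fold change -0.40), against 3.6% of all tested genes higher and 3.57% lower. Of 17 genes 15 were tested between COLONIZED-WT and GF-WT, with 7 higher and 3 lower by DESeq2 and a median log2 fold change of 0.78, against 9.35% of all tested genes higher and 8.97% lower. Without 1 library 4 to 7 were higher and 0 to 3 lower. Retnlb (4.66, SE 0.31, DESeq2 adjusted p = 1.56e-46), the goblet cell protein RELMβ, Itln1 (3.48, SE 0.34, DESeq2 adjusted p = 1.74e-21), a lectin of goblet and Paneth cells, and Ang4 (4.03, SE 1.00, DESeq2 adjusted p = 0.000681), an antibacterial ribonuclease, rose. Zg16, a lectin that binds Gram-positive bacteria, fell (-2.31, SE 0.66, DESeq2 adjusted p = 0.00326).

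Between COLONIZED-Ern2-/- and COLONIZED-WT 4 of 11 tested genes of that list were lower and 0 higher by DESeq2, with a median of -0.57, against 0.853% of all tested genes lower. Without 1 library 3 to 6 were lower, the 6 without COLONIZED-Ern2-/- replicate 1. EdgeR called a single gene of all tested (0.00786%) in this comparison. The 4 were Ang4 (-4.31, SE 0.27, DESeq2 adjusted p = 1.74e-55), Retnlb (-4.45, SE 0.78, DESeq2 adjusted p = 5.73e-06), Itln1 (-3.34, SE 0.37, DESeq2 adjusted p = 1.20e-15) and Mptx1, a mucosal pentraxin (-2.04, SE 0.47, DESeq2 adjusted p = 0.00191). Retnlb counts were 9397, 4448 and 8226 in COLONIZED-WT and 483, 75.6 and 456 in COLONIZED-Ern2-/-, so that its groups did not overlap and lay in the order opposite to those of Reg3b.

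The goblet and secretory list, which holds Spink4, was set beside Reg4 and is counted here without the targeted gene Ern2, 1 of its 15 genes. Of the other 14 genes 7 were higher and 1 lower between COLONIZED-WT and GF-WT by DESeq2, 3 were lower and 0 higher between COLONIZED-Ern2-/- and COLONIZED-WT, and 10 were lower and 0 higher between CONV-Ern2-/- and CONV-WT. Medians in the same order were 0.63, -0.71 and -1.89, against -0.01, -0.003 and 0.02 over all tested genes. Of all tested genes 9.35% were higher in the first of these comparisons, 0.853% lower in the second and 1.96% lower in the third. By edgeR 0% of genes were called between CONV-Ern2-/- and CONV-WT, so none of this list, and 0.00786%, a single gene, between COLONIZED-Ern2-/- and COLONIZED-WT. Within the groups labelled Ern2-/-, 4 of its genes were higher and 1 lower between COLONIZED-Ern2-/- and GF-Ern2-/- (median 0.35). Of all tested genes 3.6% were higher and 3.57% lower there. Between CONV-Ern2-/- and COLONIZED-Ern2-/- 9 of its genes were lower and 0 higher (3 to 8 lower without 1 library, median -1.22), against 489 of 13098 tested genes lower. The log2 fold change of Reg4 there was 0.55 (SE 0.73, DESeq2 adjusted p = 0.655). Between CONV-Ern2-/- and GF-Ern2-/- 4 were lower and 0 higher (median -0.79), against 371 of 13404 tested genes lower. By DESeq2 0 were lower without GF-Ern2-/- replicate 1 or without CONV-Ern2-/- replicate 3. In the fit of all 6 libraries the log2 fold change of Reg4 was 1.11. Muc2, the gel-forming mucin of goblet cells, rose by 1.55 (SE 0.13, DESeq2 adjusted p = 7.63e-29) on colonization of WT mice. Between CONV-Ern2-/- and CONV-WT the transcription factor Atoh1, which commits cells to the secretory lineage, was lower (-1.56, SE 0.26, DESeq2 adjusted p = 4.03e-07), as were Spdef (-2.09, SE 0.36, DESeq2 adjusted p = 1.75e-06) and Gfi1 (-2.97, SE 0.35, DESeq2 adjusted p = 1.54e-13). In that comparison 4 of 8 tested surface colonocyte genes were higher by DESeq2, among them the chloride exchanger Slc26a3 (2.26, SE 0.36, DESeq2 adjusted p = 1.66e-07), against 1.08% of all tested genes.

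CONV-WT replicate 3 stood apart from its group in these lists. Its goblet and secretory sum, Ern2 included, was 94577, against 644114 and 567102 in replicates 1 and 2 and 66616 to 87354 in CONV-Ern2-/-, and its surface colonocyte sum was 299535, against 40487 and 73946 in replicates 1 and 2 and 324480 to 432365 in CONV-Ern2-/-. It also had the least Reg4 of CONV-WT (18216). Without it 13 of the 14 goblet and secretory genes were lower and 7 surface colonocyte genes higher between CONV-Ern2-/- and CONV-WT, and DESeq2 called 1669 genes in place of 383. Without any of the other 5 libraries 4 to 7 goblet and secretory genes were lower, the 4 without CONV-WT replicate 1, and 4 surface colonocyte genes higher. Between the COLONIZED genotypes 2 to 9 goblet and secretory genes were lower without 1 library, the 9 without COLONIZED-Ern2-/- replicate 1. Whether the share of secretory and surface cells sets the Reg4 levels was not tested.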

How the data were processed

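Colon crypt RNA of 18 samples was sequenced as stranded mRNA libraries (75-cycle single-end reads). According to its methods, the authors processed reads with VIPER and STAR. The build mm10 and DESeq2 are named in the submitters' processing notes, while tool versions, annotation and the strand setting of counting are not given in the sources used here. The authors deposited raw counts per gene symbol, with no normalization and no pooling. Columns were matched by the column number in the labels, and columns of no sample came to 0.

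Each of 9 comparisons was fitted on its own 6 libraries, and 2 interactions on 12, with the Wald test of DESeq2 1.42.0 (R 4.3.3), default size factors and filters. P-values were adjusted over all tested genes (Benjamini-Hochberg), with calls under 0.01 as in the study's methods. The quasi-likelihood test of edgeR 4.0.16 was the main alternative. Normalized counts used size factors over 18 libraries. An interval is the 95% Wald interval, and log2 profiles used a pseudocount of 1. Named genes were the 5 members, the 3 nearest genes to each member with a mean normalized count of at least 10 (candidates had at least 50), up to 4 genes per list by smallest adjusted p, Ern2 and cell type markers. Genes outside this rule (Stat3, Il22, S100a8, S100a9, Lcn2, Saa3, Nos2, Zg16 and Ang4 on colonization of WT mice and Duoxa2 in the Ern2-/- groups) were added after values were seen. Members and gene lists were chosen with earlier results of these data known.

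Both tests were checked on simulated counts with known changes, where DESeq2 recovered more of them and made more false calls than edgeR. The share of false calls among DESeq2 calls exceeded the adjusted p threshold in each simulated fit. That of edgeR exceeded it by less for COLONIZED-WT against GF-WT and did not in the COLONIZED interaction. DESeq2 calls on members may therefore be less certain than their adjusted p states. Counts of list genes without each library, and of the goblet and secretory list without Ern2, were added after the data were examined. Promoters came from RefSeq and gene positions from GENCODE M21. Protein sequences were not used here.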

Additional observations from a re-analysis of the deposited data

How the results depend on the processing

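Counts of members called are given for each comparison by setting, with the percentage of all tested genes called in brackets. For COLONIZED-WT against GF-WT (3 of 5, 18.3%), edgeR gave 1 (4.94%), sex as a covariate 0 (1.92%) and leaving out 1 library 2 to 4 (9.22% to 20.2%). For CONV-WT against GF-WT (1, 11%), edgeR gave 0 (0.175%), sex 3 (6.64%), the library total 0 (7.93%) and leaving out 1 library 1 to 3 (4.31% to 20.8%). For COLONIZED-Ern2-/- against GF-Ern2-/- (1, 7.17%), edgeR gave 0 (0.216%), the library total 0 (7.33%), 1 fit of all 18 libraries 2 (8.52%) and leaving out 1 library 0 to 3 (3.42% to 10.4%). For CONV-Ern2-/- against GF-Ern2-/- (0, 4.33%), leaving out 1 library gave 0 to 3 (1.9% to 7.14%). For CONV-Ern2-/- against COLONIZED-Ern2-/- (0, 8.59%), sex gave 1 (4.76%) and leaving out 1 library 0 to 2 (3.29% to 18.4%). For COLONIZED-Ern2-/- against COLONIZED-WT (1, 1.37%), edgeR gave 0 (0.00786%), the library total 2 (0.453%), 1 fit of all 18 libraries 0 (0.18%) and leaving out 1 library 1 to 3 (0.617% to 5.26%). For CONV-Ern2-/- against CONV-WT (0, 3.03%), sex gave 2 (1.88%) and leaving out 1 library 0 to 1 (0.989% to 12.4%). TMM factors, a filter of 10 counts in 3 libraries and the fit without Cook's filter did not change these counts. The cause of these changes was not tested.

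The labels do not say whether the replicate numbers pair the samples, and the main fits were unpaired. Deviations of same-numbered libraries had correlations from -0.28 to 0.63, and in no comparison were all 3 above 0.1. With 3 libraries a group these values do not show whether samples were paired. With the replicate number as a block the members called were 3 for CONV-WT against GF-WT (9.4% of all tested genes), 1 for CONV-Ern2-/- against COLONIZED-Ern2-/- (7.35%), 2 for COLONIZED-Ern2-/- against COLONIZED-WT (1.55%) and 1 for CONV-Ern2-/- against CONV-WT (3.37%), and the log2 fold change changed sign for Reg3a in COLONIZED-Ern2-/- (1.14) and CONV-Ern2-/- (0.062) against GF-Ern2-/- and for Reg3b in the CONV interaction (1.21).

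Of 716 values of log2 fold changes under an alternative, 28 changed sign, 18 lost and 29 gained the threshold. None of the values that changed sign was a call as reported. With the library total as a covariate they were Reg3a (0.41) and Reg4 (-0.10) in CONV-Ern2-/- against COLONIZED-Ern2-/-, Reg1 in GF-Ern2-/- against GF-WT (-0.0041) and Reg3g in the COLONIZED interaction (-0.11), and with sex Reg4 in GF-Ern2-/- against GF-WT (-0.54). Leaving out 1 library, over the fits that gave an adjusted p, gave -0.15 to 0.25 for Reg1 in CONV-WT against COLONIZED-WT. It gave -1.63 to 2.75 for Reg3a and -0.17 to 1.16 for Reg4 in COLONIZED-Ern2-/- against GF-Ern2-/-, and -2.71 to 2.23 for Reg3a in CONV-Ern2-/- against GF-Ern2-/-. In GF-Ern2-/- against GF-WT it gave -0.11 to 2.75 for Reg3b, -0.49 to 2.13 for Reg3g and -0.20 to 0.82 for Reg4. In the COLONIZED interaction it gave -0.85 to 1.31 for Reg1 and -4.20 to 0.19 for Reg3a, and in the CONV interaction -6.27 to 0.23 for Reg3a, -0.91 to 1.92 for Reg3b and -0.27 to 2.33 for Reg3g. Counting also fits without an adjusted p, Reg1 ran from -1.51 to 0.62 in CONV-WT against COLONIZED-WT and from -0.29 to 2.80 against GF-WT. In CONV-Ern2-/- against CONV-WT, Reg1 then ran from -1.97 to 0.41 and Reg3a from -0.16 to 1.44.

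All 30 group means of the members kept within 1 SD with TMM factors. Depth limits Reg1 and Reg3a, with 108 and 387 reads over 18 libraries, for which 3 reads, the limit that a count of 0 allows, equal up to 8.28 normalized counts in the shallowest library.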
